A study of Mus musculus with 4 samples.

Results

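A set of 10 genes with higher signal in mouse gonocytes treated with retinoic acid, none of them known for making, moving or breaking down retinoids, was followed across every probe set that measures them. They are Tmem255a, Tmem119, Ccdc88b, Cidea, Ppbp, Spon2, Crxos, Dmp1, Kank4 and Pcdh9, 10 of 18193 genes named by the arrays. They were chosen by the size of their array signal in RA over that in vehicle, so the difference between RA and vehicle is given for them as a description, with no test. The array annotation assigned 19 probe sets to 1 of these genes alone, and 15 of the 19 lay above the signal filter used here, a mean signal of at least 16.0, the 40th percentile of all probe sets. Tmem119, Ccdc88b, Cidea, Ppbp and Kank4 had 1 probe set each, and the other 5 genes had several.

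Gonocytes are the male germ cells that resume development around birth. They came from testes of mice at 2 days post partum, were enriched by magnetic selection for the surface protein THY1 and were kept for 8 h in a medium with no serum, growth factors or feeder cells. One group (2 samples) received 100 nM retinoic acid (RA) and the other (2 samples) ethanol as the vehicle, with 1 Affymetrix expression array per sample. The mouse strain and the number of animals behind a sample are not given in the labels, and neither separate animals nor separate cultures are stated, so the spread between replicates may be technical. RA, a derivative of vitamin A, enters the nucleus and binds RA receptors, which pair with retinoid X receptors. The pair sits on direct repeats of a short half-site in DNA, classically spaced by 5 bases (DR5), and activates transcription when RA is bound. The best known genes that respond within hours encode proteins that bind, store or degrade retinoids, together with the receptor Rarb and, in germ cells, Stra8.

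Markers of other testis cells were measured besides those of germ cells. Of 10 germ cell markers with a probe set, 9 were above background on every array, and so were 8 of 8 peritubular and stromal markers, 8 of 10 Sertoli cell markers and 5 of 8 endothelial markers. The same held for 4 of 4 Leydig cell markers and, besides Tmem119 and Ccdc88b, 6 of 10 microglia and macrophage genes and 6 of 7 lymphoid genes. Background was taken as the 95th percentile of 77 probe sets of olfactory and vomeronasal receptor genes, which was 7.20 and 20.5 on the RA arrays and 16.2 and 29.5 on the vehicle arrays. Summed germ cell marker signal was 7912 and 5999 with RA, against 8211 and 7150 with vehicle. Summed endothelial marker signal was 373 and 439 with RA, against 328 and 301 with vehicle, so these groups did not overlap, and 4 of 8 endothelial markers (Tek, Tie1, Robo4 and Egfl7) had both RA arrays above both vehicle arrays, an arrangement shown by 14.2% of 13018 genes above the filter. So had the Sertoli cell genes Sox9, with 620 and 534 in RA and 446 and 424 in vehicle, and Wt1, with 353 and 308 in RA and 238 and 207 in vehicle, 2 of 8 above the filter. Of 10 germ cell markers, 2 had both RA arrays below both vehicle arrays: Zbtb16, a factor of undifferentiated spermatogonia, with 368 and 174 in RA and 701 and 699 in vehicle (log2 change −1.45), and Dazl, with a log2 change of −0.20. Over all 13018 genes above the filter 1635 had that arrangement, the share to set beside the counts of genes below vehicle further on. The ratio of 3' to 5' signal of the control transcript Actb was 2.08 and 2.32 on the RA arrays, against 1.72 and 1.73 on the vehicle arrays, and that of Gapdh was 1.85 and 2.00 against 1.56 and 1.47. The part of these differences in the results below was not tested. In such bulk samples more cells of a type and more RNA per cell cannot be told apart.

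All 10 genes were higher on both RA arrays than on both vehicle arrays when each was read from its brightest probe set. Among 13018 genes above the filter 14.2% were arranged in that way, and the 10 genes were chosen for it. Fold changes are given on log2(signal + 5), which understates those of dim genes, with a standard error from the spread within the groups (n = 2 per group). The log2 change of the 10 genes ran between 1.36 for Pcdh9 and 2.60 for Tmem255a, with a median of 1.87, beside a median of 0.0149 over all genes above the filter. Spon2, Ccdc88b and Ppbp had a mean vehicle signal under the filter and passed it through their RA values. By size of measured change they held ranks 5 to 29, and the places above, between and after them went partly to retinoid genes: 6 genes used for comparison, Stra8, Cyp26a1, Rarb, Lrat, Dhrs3 and Stra6, filled 6 of the top 8 ranks. The order is one of measured values only, since the vehicle values of Spon2, Ccdc88b, Rarb and Lrat were all below background and their changes are bounds. At the lower end, Pcdh9 stood at 1.361 (rank 29), next to Itgb2 at 1.38 (rank 28) and Gimap4 at 1.36 (rank 30), which were not among the 10. A wider mark, the lowest RA value at least 2-fold above the highest vehicle value, was met by 24 of 13018 genes, or 0.184%. Of these 24, 9 were among the 10 genes, 6 were the retinoid comparison genes and 9 were others. With 1 array left out, which makes this mark easier to reach, 44 to 74 genes met it: 63 genes when RA replicate 1 was left out, 58 for RA replicate 2, 74 for vehicle replicate 1 and 44 for vehicle replicate 2. Over all 27022 probe sets above the filter, limma called 0 (0%) at an adjusted p under 0.05. Arrays of the same replicate number deviated together (r = 0.53), and this fit leaves the number out. With 2 arrays per group, the 0 is not read as no change. The fit with the number as a block is given further on. At an unadjusted p under 0.05 limma gave 303 higher and 446 lower, together less than the share of 0.05 that would fall there with no change. With 1 array left out it called 96 without RA replicate 1, 138 without RA replicate 2 and 0 without either vehicle array.

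**Figure D1:**
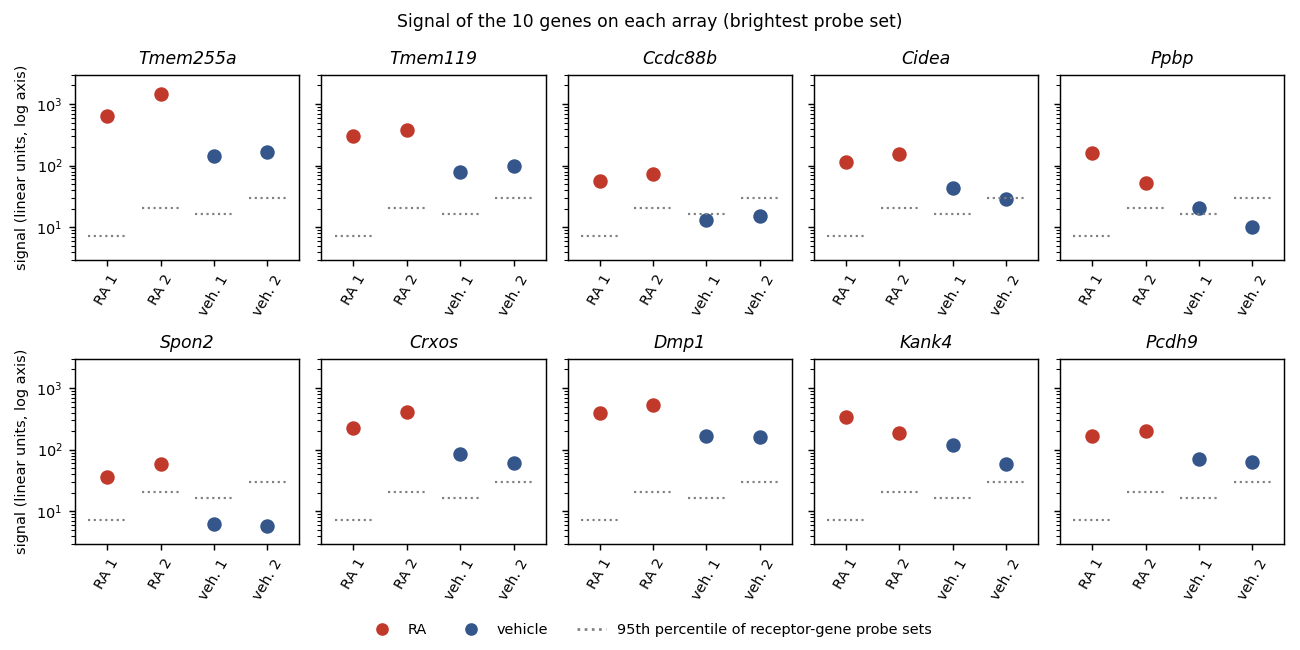
Signal of each of the 10 genes on the 4 arrays, read from its brightest probe set, on a log axis, with RA arrays in red and vehicle arrays in blue. Dotted bars mark the 95th percentile of receptor-gene probe sets on that array, and the vehicle values of Ccdc88b and Spon2 lie below these bars as do those of Ppbp and Cidea on vehicle replicate 2, while every RA value lies above them.

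Membrane proteins are encoded by 3 of the genes. Tmem255a, a transmembrane protein whose role is not well known, gave signals of 647 and 1433 on the RA arrays, against 145 and 166 on the vehicle arrays (probe set 1436948_a_at). On the log2(signal + 5) scale, turned back to folds, the lowest RA value was 3.81 times the highest vehicle value, and the change was 6.05-fold (log2 change 2.60 ± 0.58), the largest of the 10. Its RA arrays differed from each other more than its vehicle arrays did, by 1.14 against 0.19 on the log2 scale. The gene's 3 other probe sets were also separated, but 1439006_x_at and 1456596_at are based on the same sequence record in the annotation and are not independent. Probe set 1439006_x_at gave 114 and 137 with RA, against 16.6 and 32.3 with vehicle, and 1456596_at gave 74.4 and 92.2 with RA, against 11.6 and 16.0 with vehicle, which is below background and makes the change at least 3.25-fold. Probe set 1437137_at, below the filter, gave 10.8 and 14.1 with RA, against 2.49 and 3.47 with vehicle, and of these only RA replicate 1 was above background, so no fold is given for it. The log2 change of 1439006_x_at was 2.19. The related Tmem255b had no probe set of its own and is not analysed here.

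Tmem119, a membrane protein that takes part in osteoblast differentiation and is used to mark microglia, gave 301 and 384 with RA, against 80.3 and 98.2 with vehicle. The groups were far apart and the replicates close, for a 3.68-fold change (log2 change 1.88 ± 0.22). Genes of both cell types were read beside it, those of bone with Dmp1 further on. Of the microglial receptor genes, P2ry12 gave 2.19 and 4.56 with RA, against 0.637 and 3.25 with vehicle, and Cx3cr1 gave 6.67 and 8.84 with RA, against 6.50 and 14.1 with vehicle, so both were below background on every array. Of 10 microglia and macrophage genes with a probe set, 6 were above the filter, and in 0 of these 6 were both RA arrays above both vehicle arrays. In 1, Sall1, both RA arrays were below, with 286 and 113 in RA and 370 and 395 in vehicle. The median log2 change of the 6 was −0.41, and the 10 had a summed signal of 902 and 1615 with RA, against 1221 and 2194 with vehicle.

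Pcdh9 is a protocadherin, a calcium-dependent adhesion protein best known from neurons. Its probe set 1442659_at gave 166 and 198 with RA, against 71.9 and 63.3 with vehicle, a 2.57-fold change (log2 change 1.36 ± 0.15). A separate probe set, 1429861_at, gave nearly the same change, 1.35, with 145 and 134 in RA and 57.6 and 46.2 in vehicle. The remaining one, 1458269_at, gave 7.04 and 11.1 with RA, against 7.54 and 7.53 with vehicle. It was below background and its groups overlapped. Of the other delta protocadherins, the non-clustered subfamily that Pcdh9 belongs to, 6 were above the filter, 0 with both RA arrays above and 1, Pcdh10, with both below vehicle, and their median log2 change was −0.28. Pcdh20, below the filter, also had both RA arrays above vehicle, with 36.6 and 9.16 in RA and 6.7 and 4.72 in vehicle. Only its value on RA replicate 1 was above background.

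**Figure D2:**
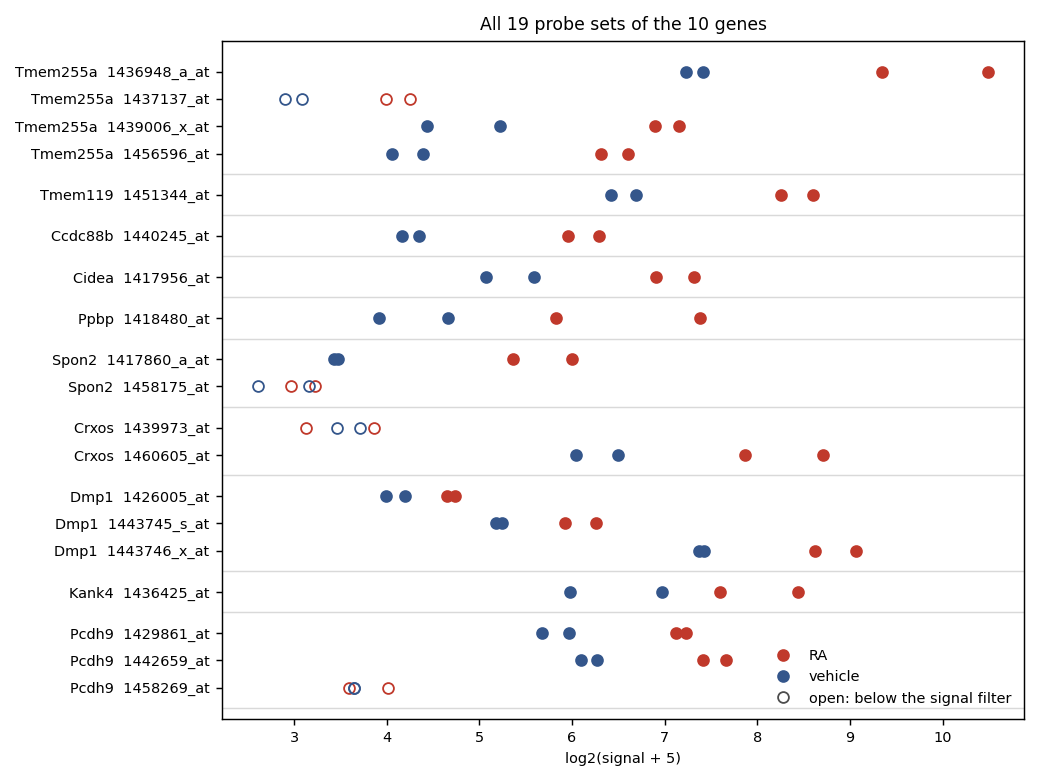
All 19 probe sets of the 10 genes, one per line, with log2(signal + 5) on the horizontal axis, RA arrays in red and vehicle arrays in blue. Filled points are probe sets above the signal filter, in which RA and vehicle do not overlap. Open points are the 4 probe sets below it, of which only 1437137_at of Tmem255a keeps the groups apart. The filled ones of Spon2, Ccdc88b and Ppbp, 1456596_at of Tmem255a and 1426005_at of Dmp1 had a mean vehicle signal under the filter. They passed it through their RA values, so the split between filled and open points is partly built in.

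Secreted proteins are encoded by 3 genes. Ppbp, the precursor of the platelet chemokine Cxcl7 that attracts neutrophils, gave 162 and 51.9 on the RA arrays, against 20.2 and 10.1 on the vehicle arrays. The RA arrays differed from each other by 1.55 on the log2 scale, and 1 of the vehicle arrays was below background. The change was 5-fold (log2 change 2.32 ± 0.86), with the largest standard error of the 10. With RA replicate 1 left out the log2 change was 1.55, and with RA replicate 2 left out it was 3.10.

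The promoter of Ppbp held a feature that the choice of genes did not use. RefSeq promoter windows, 250 bases before to 50 bases after an annotated start on GRCm38.p6, were available for 7 of the 10 genes, with 11 windows in all. A half-site was searched on both strands in the form AGGTCA, the form AGTTCA, the form GGGTCA and the form GGTTCA, and a DR5 as a pair of such half-sites on the same strand with 5 bases between them. Among 32851 windows, 43.7% held a half-site, 0.222% a repeat spaced by 1 base, 0.268% one spaced by 2 bases and 0.0974% a DR5. The repeats spaced by 1 or 2 bases were found in 0 of the 7 genes. Ppbp was the gene among the 7 with a DR5, at chr5:90768272-90768288, 246 to 230 bases before the start, and both its half-sites were AGGTCA. A DR5 with AGGTCA at both places was found in 3 of the 32851 windows. Of the genes with it, Gm40135 and Gm43837 had no probe set, so it cannot be set beside a change in any gene but Ppbp. The DR5 repeats of Ppbp and of the retinoid genes Rarb (chr14:16575513-16575529, 53 to 37 bases before the start) and Cyp26a1 (chr19:37697776-37697792, 32 to 16 bases before the start) are shown to compare them, read on the strand on which the repeat runs, which is the minus strand for all 3, with the half-sites in capitals.
Ppbp DR5: AGGTCAgacctAGGTCA
Rarb DR5: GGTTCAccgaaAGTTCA
Cyp26a1 DR5: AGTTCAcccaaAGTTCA
The whole window of Ppbp (chr5:90768268-90768567, plus strand) is shown because it holds the repeat, and that of Ccdc88b (chr19:6858162-6858461, minus strand) because it holds 1 AGGTCA half-site, 243 bases before the start. The window of Tmem255a (chrX:38252432-38252731, minus strand), the gene with the largest change, held no half-site. All 3 are written 5′ to 3′ along the gene, with half-sites on either strand in capitals, so that AGGTCA on the other strand reads TGACCT.
Ppbp: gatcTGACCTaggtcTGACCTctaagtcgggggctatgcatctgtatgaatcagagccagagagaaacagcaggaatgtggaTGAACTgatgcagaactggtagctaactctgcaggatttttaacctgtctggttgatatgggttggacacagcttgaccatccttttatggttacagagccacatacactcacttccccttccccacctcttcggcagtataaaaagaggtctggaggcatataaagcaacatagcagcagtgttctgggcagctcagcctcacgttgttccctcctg
Ccdc88b: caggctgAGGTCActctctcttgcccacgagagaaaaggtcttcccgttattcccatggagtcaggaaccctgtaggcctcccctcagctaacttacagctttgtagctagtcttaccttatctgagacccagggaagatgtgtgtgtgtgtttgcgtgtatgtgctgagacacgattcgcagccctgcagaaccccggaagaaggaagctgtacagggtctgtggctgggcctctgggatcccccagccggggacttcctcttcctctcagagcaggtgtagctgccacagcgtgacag
Tmem255a: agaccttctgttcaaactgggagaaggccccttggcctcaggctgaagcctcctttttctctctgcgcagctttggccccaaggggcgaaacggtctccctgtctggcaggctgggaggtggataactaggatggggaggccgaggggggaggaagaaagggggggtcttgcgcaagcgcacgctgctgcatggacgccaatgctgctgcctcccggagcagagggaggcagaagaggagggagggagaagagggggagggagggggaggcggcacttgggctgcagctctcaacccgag

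A TATA box, TATAAA on either strand, was found in 13.6% of all windows and among the 7 genes in that of Ppbp, at 30 and at 8 bases before the start. Half-sites were also found in both windows of Pcdh9, which overlap and share 1 AGTTCA, and in 0 windows of Tmem255a, Crxos, Dmp1 and Kank4. The windows are short, and these matches describe letters, not bound receptors. Genes with a DR5 in such a window were few on the arrays: 31 genes had one, 11 of them had a probe set and 7 were above the filter. Of these 7, Ppbp, Rarb and Cyp26a1 had the lowest RA value at least 2-fold above the highest vehicle value, the mark met by 0.184% of all genes above the filter. In the other 4, Blvrb, Cfap45, Prokr2 and Tnfsf13b, the groups overlapped, with log2 changes of 0.42, 0.16, 0.26 and 0.05. Ppbp, Rarb and Cyp26a1 were known for their change before the windows were searched, and Ppbp and Rarb had a mean vehicle signal under the filter and are among the 7 through their RA values, so nothing is read from this count.

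**Figure D3:**
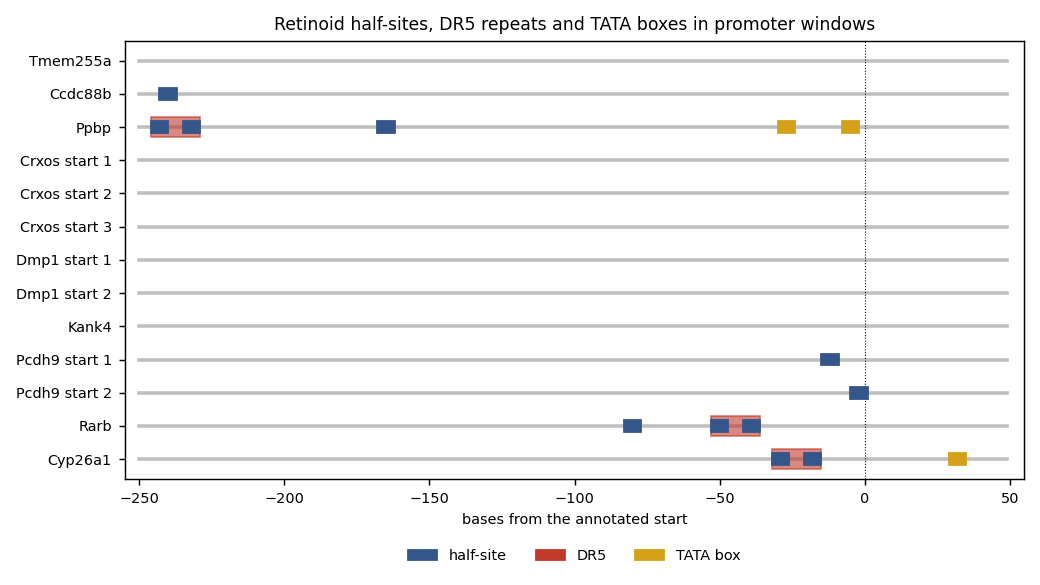
Promoter windows of the 7 genes with one, and of Rarb and Cyp26a1, drawn by distance from the annotated start (0) in bases, with half-sites in blue, DR5 repeats in red and TATA boxes in yellow. Of the 11 windows of the 7 genes, that of Ppbp holds a DR5, 246 to 230 bases before the start, farther from it than those of Rarb and Cyp26a1.

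Ppbp lies in a cluster of CXC chemokine genes, and its neighbours were read beside it. Pf4, the other abundant platelet chemokine, gave 57.4 and 213 with RA, against 102 and 279 with vehicle, and its groups overlapped (log2 change −0.58). Pf4 was higher on replicate 2 of each group, where Ppbp was lower. Of 10 other CXC chemokines above the filter, 0 had both RA arrays above both vehicle arrays and 2, Cxcl12 and Cxcl14, had both below. For Cxcl14 this was nearly a tie, with 71.39 on RA replicate 1 and 71.4 on vehicle replicate 2. Among 12 other platelet and megakaryocyte genes with a probe set, Gp9, Gp5, Gp6, F2rl2 and P2ry12 were below background on every array, and the integrin gene Itga2b, which defines the lineage, gave 8.64 and 17.6 with RA, against 12.6 and 20.3 with vehicle. Besides Pf4, Itgb3 and Vwf were above background on every array, with overlapping groups. Itgb3 gave 110.5 and 186 with RA, against 142 and 166 with vehicle. Vwf gave 67.9 and 45.3 with RA, against 96.9 and 40.1 with vehicle. The median log2 change of the 4 above the filter was −0.23, and the summed signal of the 12 was 303 and 502 with RA, against 429 and 550 with vehicle.

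Spon2, or mindin, is an extracellular matrix protein that binds microbes and promotes innate immune responses. Its probe set 1417860_a_at gave 36.0 and 59.0 with RA, against 6.13 and 5.81 with vehicle. Both vehicle values were below background, so the change is given as at least 1.90-fold, against 4.67-fold as measured (log2 change 2.22 ± 0.32). A second probe set, 1458175_at, gave 4.34 and 2.83 with RA, against 3.96 and 1.12 with vehicle. It was below background on all arrays and its groups overlapped. Of 7 genes of spondins, R-spondins and thrombospondins, all above the filter, 0 had both RA arrays above and, beside 1635 of 13018 genes, 2 had both below vehicle. These were Spon1, with a log2 change of −0.17, and Rspo2, which gave 47.1 and 16.99 with RA, against 61.4 and 65.0 with vehicle.

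Dmp1, an acidic phosphoprotein that osteocytes lay down in bone and dentin, was read by 3 probe sets that differed in level and in size of change. The brightest, 1443746_x_at, gave 389 and 532 with RA, against 167 and 160 with vehicle (2.73-fold, log2 change 1.45 ± 0.22). Probe set 1443745_s_at gave 71.5 and 55.8 with RA, against 31.3 and 33.0 with vehicle (log2 change 0.88). Probe set 1426005_at gave 21.6 and 20.1 with RA, against 10.9 and 13.3 with vehicle (log2 change 0.60), where both vehicle values and the value of RA replicate 2 were below background. RA lay above vehicle in all 3. The annotation bases the first and the second of these on the same sequence record and the last on another. Those first and second probe sets are of the x and s types, which can match several transcripts. Whether their signal comes from Dmp1 alone was not tested. The bone matrix genes of the same family with a probe set, Dspp, Ibsp and Mepe, were below background on every array, as were the osteoblast factor Sp7 and the osteocyte gene Sost. Other genes of the osteoblast and osteocyte list, which stromal cells also express, were well above it: Col1a1 gave 1513 and 2264 with RA, against 1574 and 2097 with vehicle, and Postn and Alpl were above background on every array too. Of the 8 with a probe set, 4 were above the filter, 0 with both RA arrays above and 1, Postn, with both below vehicle, and the median log2 change of the 4 was −0.03.

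Cytoplasmic scaffold proteins are encoded by 2 genes. Ccdc88b, a coiled-coil protein of the Girdin family known from lymphoid and myeloid cells, gave 57.3 and 73.2 with RA, against 12.98 and 15.3 with vehicle. The vehicle values were below background, so the change is given as at least 2.58-fold, against 3.65-fold as measured (log2 change 1.87 ± 0.19). Its relatives Ccdc88a and Ccdc88c had log2 changes of 0.14 and 0.10, with overlapping groups. Of 7 other lymphoid genes above the filter, 0 had separated groups. The leukocyte gene Ptprc gave 104 and 162 with RA, against 85.0 and 179 with vehicle (log2 change 0.07).

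Kank4, an ankyrin-repeat protein of a family that links focal adhesions to microtubules, was the gene of the 10 that did not meet the 2-fold mark. It gave 343 and 189 with RA, against 120 and 58.2 with vehicle, and the lower RA value was 1.55 times the higher vehicle value on the same scale. The change was 2.92-fold (log2 change 1.55 ± 0.65), with replicate 2 lower than replicate 1 in both groups. Kank1, Kank2 and Kank3 were above background on all arrays, with log2 changes of −0.08, −0.03 and −0.09 and overlapping groups.

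Cidea, a protein that fuses and enlarges lipid droplets and marks brown fat, gave 115 and 154 with RA, against 43.3 and 28.7 with vehicle (3.43-fold, log2 change 1.78 ± 0.33). The groups were clearly apart, and the lower vehicle value was just under background. Cideb and Cidec, its closest relatives, were below the filter. The brown fat gene Ucp1 gave 15.3 and 5.71 with RA, against 11.8 and 13.3 with vehicle. Of 10 brown and beige fat genes with a probe set, besides Cidea, 3 were above background on every array. These were Ppargc1a, Dio2 and Fabp4, with log2 changes of −0.08, 0.10 and −0.26 and overlapping groups. Of 5 other fat genes above the filter 2 had both RA arrays above vehicle, beside 14.2% of all genes. These were Pparg, a nuclear receptor of fat cell differentiation, with 25.9 and 31.9 in RA and 13.5 and 18.1 in vehicle, both vehicle values below background, and Adipoq, a fat cell hormone, with a log2 change of 0.26. Pparg had a mean vehicle signal under the filter and is among the 5 through its RA values, so nothing is read from this count.

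Crxos, a homeobox gene on the strand opposite Crx that is known from early mouse embryos, gave 228 and 415 with RA, against 85.3 and 60.7 with vehicle on probe set 1460605_at (4.06-fold, log2 change 2.02 ± 0.48). Its other probe set, 1439973_at, gave 3.76 and 9.56 with RA, against 6.03 and 8.07 with vehicle, below background with overlapping groups. Crx itself gave 1.65 and 1.62 with RA, against 2.68 and 2.38 with vehicle, below background on every array. None of the 10 related homeobox genes with a probe set was above the filter.

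**Figure D4:**
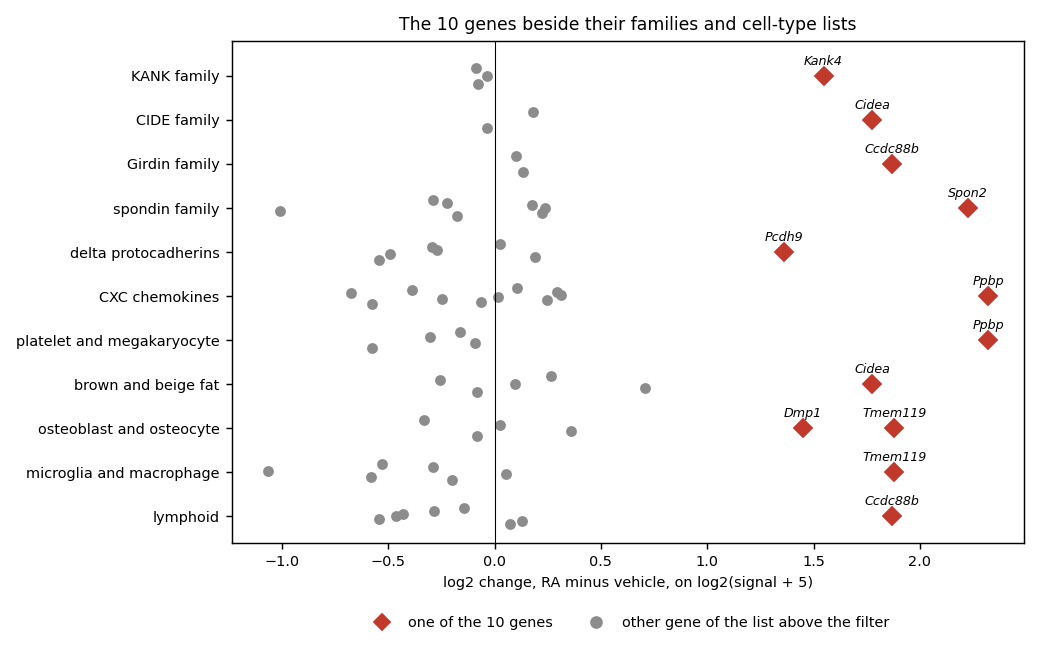
Log2 change, RA minus vehicle, of the 10 genes that belong to a list (red diamonds) and of the other genes of that list above the filter (grey points). The red diamonds lie between 1.36 and 2.32, right of every grey point of their line, in the comparison they were chosen on; Tmem255a and Crxos had no list with another gene above the filter and are not drawn.

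The 10 genes did not share 1 pattern among the 4 arrays. RA replicate 2 was the higher RA array in 8 of 10, all but Ppbp and Kank4, where 46.4% of all genes above the filter were higher on it. Vehicle replicate 2 was the higher vehicle array in 3 of 10, Tmem255a, Tmem119 and Ccdc88b, where 42.8% of all genes were. The 2 groups went the same way between their replicates in 5 of the 10 genes. That share was not counted over all genes, where arrays of the same number deviated together (r = 0.53 over 27022 probe sets). Nothing is therefore read from the 5. The pooled SD within groups had a median of 0.33 for the 10 genes and of 0.23 for all genes above the filter, on the log2 scale, and none of these differences between replicates was tested.

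**Figure D5:**
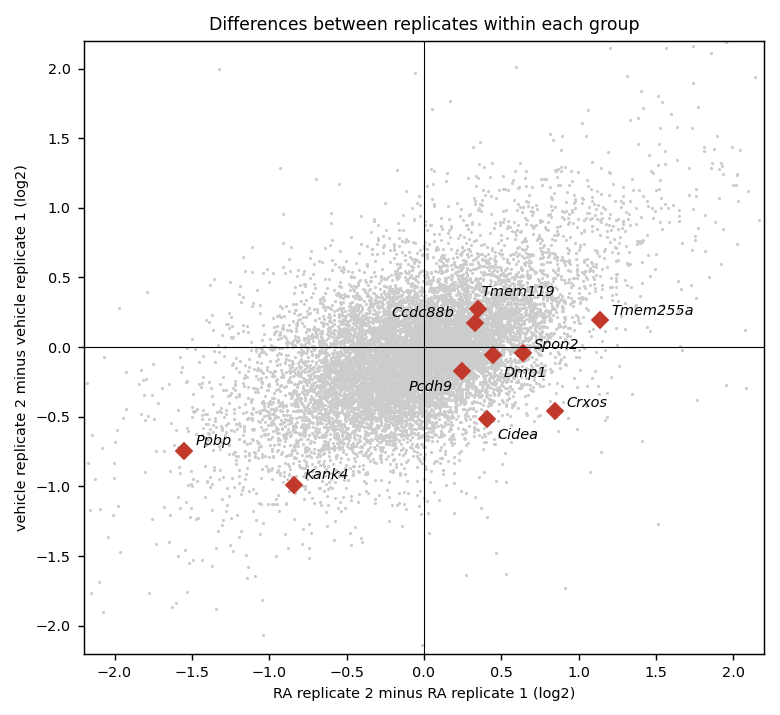
Difference between replicates 2 and 1 within RA (horizontal) and within vehicle (vertical), in log2 units, for the 10 genes (red) and all other genes above the filter (grey; a few lie outside the axes). Ppbp and Kank4 lie at the lower left, lower on replicate 2 of both groups, and Tmem255a, Tmem119 and Ccdc88b at the upper right.

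For each of the 10, the gene with the closest profile was found among 13008 others, as the smallest Euclidean distance between log2 values centred on their mean over the 4 arrays. Tmem255a was closest to Dhrs3, an enzyme that returns retinaldehyde to retinol, at a distance of 0.40, and Spon2 (0.40) and Crxos (0.45) to Stra6, a membrane receptor of the retinol carrier. Tmem119 (0.24) and Ccdc88b (0.19) were closest to Mbd1, a protein that binds methylated DNA. Cidea was closest to Cyp7b1, an oxysterol hydroxylase, at 0.22. Dmp1 (0.13) and Pcdh9 (0.10) were closest to Gabra3, a subunit of the GABA receptor. Kank4 was closest to the keratin gene Krt73, at 0.39, and Ppbp to Shisa9, at 0.88, the loosest match of the 10. With 4 arrays these distances follow mostly the difference between RA and vehicle for which the genes were chosen.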

How the data were processed

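Expression was measured in 4 samples, 2 with RA and 2 with vehicle, on 1 Affymetrix Mouse Genome 430 2.0 array each. Per the labels' protocols, amplification started from 75 ng of total RNA (NuGEN Ovation, version 2), and GCOS 1.2 quantified the images. The values deposited are intensities on a linear scale, 1 per probe set and array; the summary and scaling steps are not given in the sources. Trimming 2% from either end gave a mean of 125 for every array, so no further scaling was applied. The number of arrays limits the precision.

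Control probe sets (64) were left out, which left 45037. Of these 34945 named 1 gene, 932 several and 9160 none, in GEO's platform annotation. Entrez IDs gave current symbols, from a gene table of GRCm38.p6, for 34741. Values were log2(intensity + 5). RA and vehicle were compared over all probe sets above the filter with limma 3.58.1 in R 4.3.3 (eBayes with an intensity trend, two-sided, Benjamini-Hochberg adjustment), checked first on simulated arrays. A gene was read from its brightest probe set. The plots used matplotlib 3.10.9 (Python 3.11.15).

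The 10 genes, the gene lists and the tests were chosen with earlier results of these data known. The rule for named genes took the 10 genes, the defining genes of each list and at most 2 of its most changed in either direction, 6 retinoid genes and the closest profile of each of the 10. The genes with a DR5 and the genomic neighbours were added after the values were seen. Alternatives covered scaling, pseudocount, filter, probe set choice, variance model, the replicate number and leaving out each array.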

Additional observations from a re-analysis of the deposited data

How the results depend on the processing

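All 10 genes kept a positive log2 change under each alternative run. With both RA arrays above both vehicle arrays in all 10, the leave-outs, block, filters and pseudocounts could not turn the sign. Spon2 and Ccdc88b were below the filter set at the 60th percentile, and Spon2 was below the filter in other settings too. The count of the 10 genes with a gap of at least 2-fold, 9, was 5 with a gene's probe sets averaged, where the dim ones count equally, and between 7 and 10 otherwise. Under single settings a change moved by over 1.5 times for 4 genes: Ppbp without RA replicates 1 and 2 (1.55 and 3.10) and with a pseudocount of 20 (1.72); Spon2 with that pseudocount (1.36), with the mean of its probe sets (1.22) and without probe sets of the x, s and a types, which match several transcripts (0.21, from its other probe set); Crxos with the mean of its probe sets (0.97); and Dmp1 without those types (0.60). The count of 24 genes over the whole array was 15 with a filter at the 60th percentile, and 44 to 74 with 1 array left out. Probe sets called by limma, 0 in all, were 0 to 138 with 1 array left out: 96 without RA replicate 1, 138 without RA replicate 2 and 0 without either vehicle array. A lone array is then assumed to vary like the other group.

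With the replicate number as a block, limma called 558 probe sets, 230 higher and 328 lower, and with the gap taken within each number 41 genes and all 10 of the genes described met it. Arrays of the same number deviated together (r = 0.53 over 27022 probe sets), but with 2 numbers this does not show that they pair the samples. The cause of these changes was not tested. Signals near background limit Spon2, Ccdc88b, Ppbp and Cidea most.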

Other observations

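The genes next to the 10 on their chromosomes were read as well. For each of the 10, the nearest protein-coding gene above the filter on either side was taken, 20 in all, by gene order in RefSeq. The groups were separated with RA higher in 3 of the 20, Iscu beside Tmem119, Nrxn2 beside Ccdc88b and Sparcl1 beside Dmp1, and with RA lower in 0, and the median log2 change was 0.16. Over all genes above the filter the share separated with RA higher was 14.2%, close to that of the neighbours, and the median was 0.0149. Sparcl1, a matrix protein related to osteonectin, gave 371 and 467 with RA, against 179 and 205 with vehicle (log2 change 1.10), and had the highest value among the neighbours. Of the 10 genes 4, Ppbp, Spon2, Dmp1 and Tmem119, lie on chromosome 5, which held 6.33% of the genes above the filter.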
